A study of Mus musculus with 18 samples.

Results

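The transcription factor ATF4 and 9 genes of amino acid supply and one-carbon metabolism that it is known to act on were followed in mouse fibroblasts moved from culture to a new tissue. The genes were *Atf4*, *Trib3*, *Chac1*, *Asns*, *Phgdh*, *Psat1*, *Shmt2*, *Mthfd2*, *Slc7a5* and *Slc7a11*. They were chosen by symbol, with earlier results of these data known. The shares of all genes given below are a description and no independent test. All 10 matched 1 of the 38924 genes of the count table, and all 10 were among the 16577 genes with enough counts to be tested. RNA-seq was done on heart, kidney and tail fibroblasts that had been placed beneath the capsule of a host kidney and sorted as CD45-;TdTomato+ cells 3 days later (HFs, KFs and TFs), and on fibroblasts of the same 3 organs kept in culture (HFc, KFc and TFc), with 3 libraries in each of the 6 groups. Donors were 10-week-old male Rosa mT/mG mice on a C57BL/6 background, whose cells carry a red membrane protein, and recipients were C57BL/6J mice 10 to 11 weeks old. The cells had grown in culture for 10 days before transplantation, and those left over were plated again for 3 days to give the cultured groups, so all 6 groups share the culture step, while the transplanted groups alone also went through dissociation of the kidney and sorting. Cells for each transplant were kept in a tube of their own and the study describes the libraries as biological replicates, but the sources used here do not say whether those of a group came from separate donors or cultures, and p-values measure the spread between these libraries.

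ATF4 is a basic leucine zipper factor of the integrated stress response. When amino acids are short or the endoplasmic reticulum is stressed, kinases phosphorylate eIF2alpha, general translation falls and the *Atf4* message is translated more, so that ATF4 protein is set largely by translation and its mRNA level is no measure of it. ATF4 then activates genes for amino acid import, amino acid synthesis, tRNA charging and the mitochondrial folate cycle, which feeds serine carbon into nucleotides, and genes such as *Trib3* and *Chac1* that act back on the response. Fibroblasts use the serine and glycine pathway for the glycine of collagen.

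ATF4 binds, as a dimer with C/EBP family factors, to composite elements whose usual form is TGATGNAA. The 250 bases before the annotated start of each gene (RefSeq, GRCm38.p6) were searched on both strands for this form and for TGNNGCAA, a looser form chosen after the sequences were seen, and the 2 forms overlap where a site reads TGATGCAA. Windows were found for 9 of the 10 genes, with 2 alternative starts for *Psat1*, and *Slc7a5* had none. The first form was present in *Asns*, *Chac1* and *Slc7a11* (3 of 9), compared with 3.45% of all 32851 windows of this length, and the looser form in *Chac1*, *Trib3*, *Psat1* and *Slc7a11* (4 of 9), compared with 9.59%. The 5 windows with a match are given because they show where these letters lie in genes that changed to different extents below. Each is written 5′ to 3′ on the strand of the gene and ends next to its start, and capitals mark the matches.
Asns, chr6:7693210-7693459, minus strand: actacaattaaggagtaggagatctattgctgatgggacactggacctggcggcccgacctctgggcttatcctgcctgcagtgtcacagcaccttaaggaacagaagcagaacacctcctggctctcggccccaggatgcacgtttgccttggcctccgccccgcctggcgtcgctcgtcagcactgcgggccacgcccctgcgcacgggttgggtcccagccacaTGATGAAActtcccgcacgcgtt
Chac1, chr2:119350992-119351241, plus strand: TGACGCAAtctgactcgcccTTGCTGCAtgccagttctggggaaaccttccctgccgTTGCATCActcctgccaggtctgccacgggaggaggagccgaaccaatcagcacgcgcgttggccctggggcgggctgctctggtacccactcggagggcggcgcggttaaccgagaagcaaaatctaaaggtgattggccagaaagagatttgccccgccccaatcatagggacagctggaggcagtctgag
Trib3, chr2:152344061-152344310, minus strand: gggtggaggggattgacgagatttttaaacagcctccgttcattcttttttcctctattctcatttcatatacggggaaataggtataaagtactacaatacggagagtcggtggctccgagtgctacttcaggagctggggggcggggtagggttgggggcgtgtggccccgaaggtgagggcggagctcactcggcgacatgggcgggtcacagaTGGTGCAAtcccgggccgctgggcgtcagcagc
Psat1, chr19:15925060-15925309, minus strand: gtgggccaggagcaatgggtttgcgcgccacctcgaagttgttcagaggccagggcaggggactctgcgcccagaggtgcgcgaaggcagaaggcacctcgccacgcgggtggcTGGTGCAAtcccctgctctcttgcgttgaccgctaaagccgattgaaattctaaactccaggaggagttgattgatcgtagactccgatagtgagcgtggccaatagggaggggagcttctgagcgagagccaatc
Slc7a11, chr3:50443614-50443863, minus strand: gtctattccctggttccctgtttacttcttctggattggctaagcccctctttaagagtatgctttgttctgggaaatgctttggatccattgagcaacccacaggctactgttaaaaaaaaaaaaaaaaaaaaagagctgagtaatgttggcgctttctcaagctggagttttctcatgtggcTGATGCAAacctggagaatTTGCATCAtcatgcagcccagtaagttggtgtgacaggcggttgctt

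The match in *Asns* lay 23 to 16 bases before the start and that in *Trib3* 33 to 26 bases before it, both on the strand of the gene. *Slc7a11* held 2 copies of the full form on opposite strands, 66 to 59 and 47 to 40 bases before the start. *Chac1* held 3 matches between 250 and 186 bases before the start, and *Psat1* a single one 136 to 129 bases before one of its 2 starts. The windows of *Atf4*, *Phgdh*, *Shmt2* and *Mthfd2* held neither form, which says only that these letters are absent from these 250 bases. A match is a description of the sequence, and binding was not measured here.

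**Figure D1:**
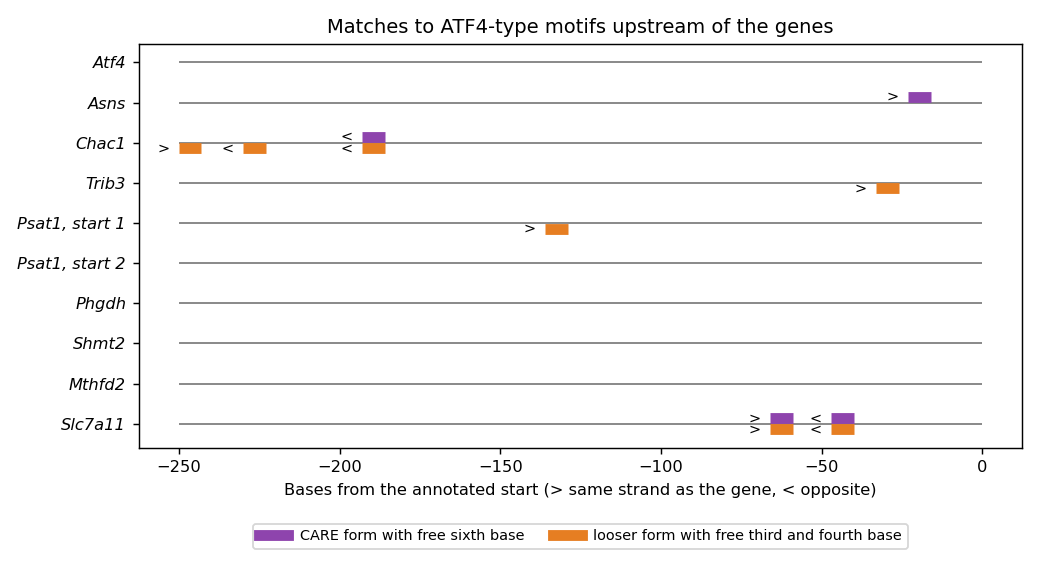
Position of the matches in the 10 windows of 9 genes. The x axis is the distance in bases from the annotated start, each grey line is a window of 250 bases, and coloured blocks are matches to the usual (purple) and the looser (orange) form. Matches lie between 66 and 16 bases before the start in *Asns*, *Trib3* and *Slc7a11* and farther away in *Chac1* and *Psat1*, and the other 5 windows hold none.

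Library totals lay between 17927838 and 32245168 counts, and levels are given as counts scaled to the library total (CPM) after TMM normalization. The 8 fibroblast markers were above 3 counts in at least 1 library of every group. Their summed level, mostly that of *Col1a1*, *Col1a2* and *Col3a1*, was 12278 to 16006 CPM in culture and 17843 to 123003 CPM after transplantation. Of the 8 markers, 6, 6 and 5 rose in heart, kidney and tail fibroblasts, and 1, 0 and 0 fell. The one that fell was *Thy1*, with 123 to 130 CPM in HFc and 24.9 to 44.5 in HFs. The library labelled KFs replicate 3 stands apart: its Y-linked genes summed to 0.722 CPM, compared with at least 175 in the others, and its *Xist* level was 1492 CPM, compared with at most 0.404, although the donors are given as male. It also had the lowest fibroblast marker sum of the transplanted libraries (17843 CPM, compared with 92924 and 69120 in KFs replicates 1 and 2). Its levels of *Pdgfra*, *Pdgfrb* and *Thy1* (77.8, 183 and 29.5 CPM) were below those of every KFc library. Those of *Col1a1*, *Col1a2*, *Col3a1*, *Dcn* and *Lum* (8719, 4531, 4259, 42.8 and 1.28 CPM) were above those of every KFc library. Proximal tubule markers summed to 19.5 to 25.0 CPM in HFc and TFc, 103 to 112 in KFc, 58.7 to 123 in KFs, 127 to 326 in TFs and 142, 1180 and 78.7 in HFs, and all 10 of them rose in HFs relative to HFc and in TFs relative to TFc and 8 in KFs relative to KFc, where *Lrp2* at 92.0 to 99.2 CPM made up most of the sum of KFc. Of 5 markers of other tubule segments, 5, 4 and 5 rose in heart, kidney and tail fibroblasts, with sums of at most 0.366 CPM in culture and 11.8 to 81.0 after transplantation. Of 5 endothelial markers 4, 3 and 3 rose (sums of 21.8 to 31.5 and 21.9 to 40.0 CPM), and of 3 erythroid markers 3, 1 and 3 (0 in culture and 0.0802 to 22.02 CPM). Of 8 leukocyte markers 5 were tested, and 0, 4 and 4 of these fell, with sums of 73.2 to 86.1 CPM in HFc and 78.6 to 135 in HFs, 359 to 374 in KFc and 10.8 to 118 in KFs, and 159 to 187 in TFc and 32.7 to 38.9 in TFs. The part of these markers in the results was not tested, except that of proximal tubule markers in the comparison of transplanted organs. In sorted bulk samples fewer cells of a type and less RNA per cell cannot be told apart.

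After transplantation, 7 of the 10 genes fell and none rose in heart fibroblasts, 5 fell and none rose in kidney fibroblasts, and 5 fell and 1 rose in tail fibroblasts. A gene was said to rise or fall at an adjusted p under 0.05 with a log2 fold change above 1 or below -1 (edgeR's quasi-likelihood test on all 18 libraries, Benjamini-Hochberg adjustment over the 16577 genes). Of all genes tested, 9.33% fell in HFs, 7.99% in KFs and 5.53% in TFs, and 18.3%, 14.7% and 11.0% rose. *Asns*, *Trib3*, *Chac1*, *Phgdh* and *Mthfd2* fell in all 3 organs, which 1.76% of all genes did (5.30% rose in all 3). The median log2 fold change of the 10 genes was -2.17 in heart, -0.96 in kidney and -1.26 in tail fibroblasts, beside 0.05, 0.09 and 0.00 over all genes. At the adjusted p alone, 9, 7 and 7 genes were lower (28.4%, 22.7% and 20.2% of all genes), and 0, 1 and 1 were higher (28.0%, 26.1% and 18.6%), in both cases *Slc7a11*. The 3 libraries of a transplanted group lay below all 3 of the cultured group for all 10 genes in heart (34.0% of all genes), 7 in kidney (25.0%) and 7 in tail fibroblasts (31.2%), and above them for 0, 1 and 1 (33.3%, 26.2% and 29.3%). Each call of these 5 genes held under all 28 alternatives, among them the fit without KFs replicate 3, and 7 genes fell in heart fibroblasts also without HFs replicate 2, where *Shmt2* (-1.01) took the place of *Psat1*.

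**Figure D2:**
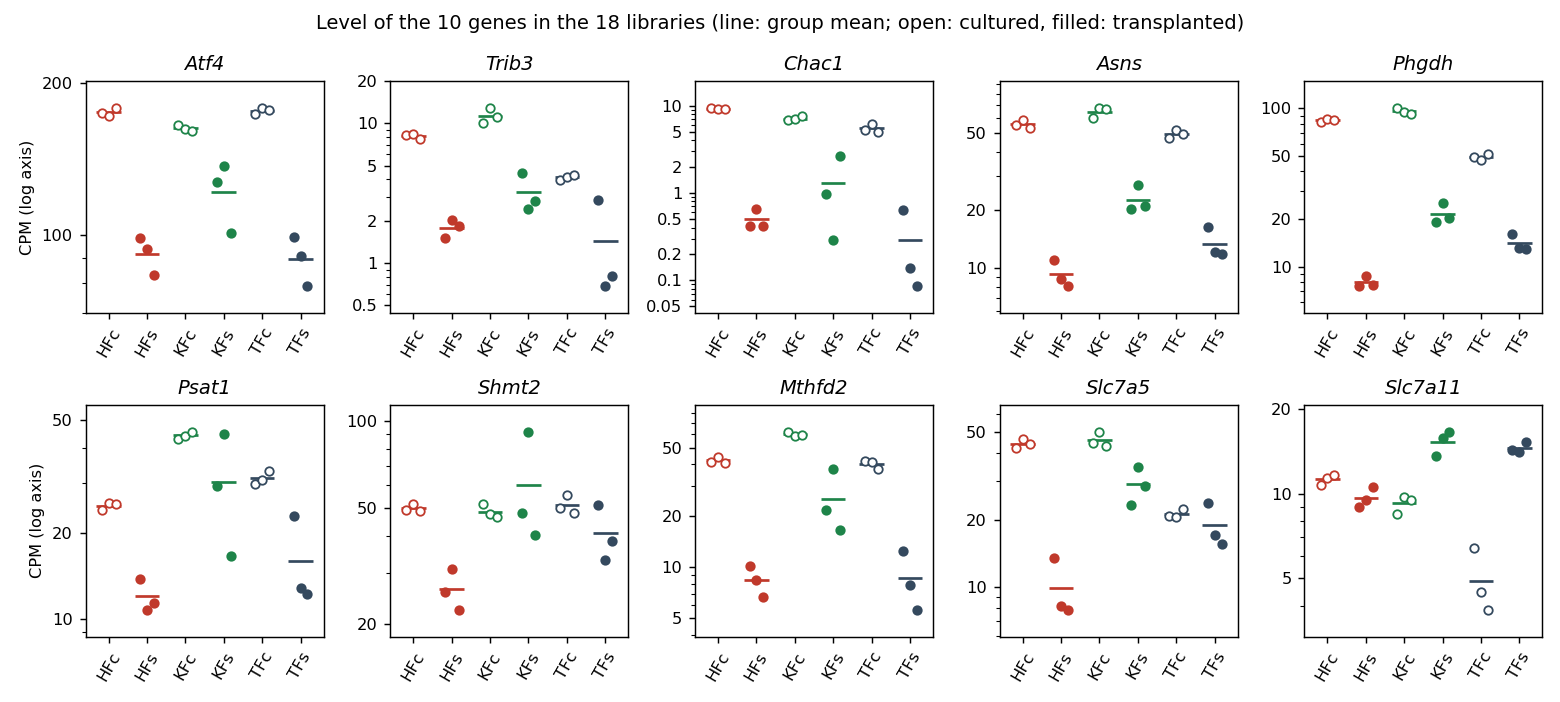
Level of the 10 genes in each library. The y axis is CPM on a log axis with its own range in each panel, points are single libraries (open for cultured, filled for transplanted, 3 per group in replicate order from left to right) and lines are group means. The filled points lie below the open points of the same organ for *Asns*, *Trib3*, *Chac1*, *Phgdh* and *Mthfd2* in all 3 organs, and above them for *Slc7a11* in kidney and tail fibroblasts.

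*Atf4* (ENSMUSG00000042406, chromosome 15 from 80255184 to 80257541, plus strand, GRCm38) had the highest level of the 10 genes per kilobase of principal transcript in every group, between 51.9 CPM per kb in TFs and 102 in TFc. In culture its level was 175, 172 and 178 CPM in HFc, 165, 162 and 160.3 in KFc and 173, 178 and 177 in TFc. After transplantation it was 98.4, 93.8 and 83.0 CPM in HFs, 127, 137 and 101 in KFs and 99.0, 90.6 and 78.9 in TFs. Each transplanted library was below every cultured library, and the transplanted kidney libraries were above those of the other 2 organs. The log2 fold change was -0.93 (SE 0.11, adjusted p = 2.78e-06) in heart, -0.42 (SE 0.10, adjusted p = 0.00359) in kidney and -0.98 (SE 0.11, adjusted p = 4.73e-06) in tail fibroblasts by edgeR. These differences passed the p threshold but not the limit on the fold change, which the tail value passed without TFs replicate 1 (-1.06). HFc and TFc overlapped at the top of the order of groups and HFs and TFs at its lower end.

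*Trib3*, a pseudokinase that binds ATF4 and limits its activity, and *Chac1*, which degrades glutathione, are among the genes most sensitive to the response. *Trib3* (ENSMUSG00000032715, chromosome 2 from 152337422 to 152344032) had 8.23, 8.36 and 7.76 CPM in HFc, 10.1, 12.9 and 11.1 in KFc and 3.95, 4.12 and 4.30 in TFc. After transplantation it had 1.50, 2.03 and 1.86 CPM in HFs, 4.45, 2.44 and 2.77 in KFs and 2.84, 0.682 and 0.806 in TFs. The level fell in each organ, and the groups of an organ did not overlap, while KFs overlapped TFc. The log2 fold change was -2.17 (SE 0.38, adjusted p = 0.000201) in heart, -1.82 (SE 0.37, adjusted p = 0.00078) in kidney and -1.54 (SE 0.39, adjusted p = 0.00575) in tail fibroblasts by edgeR. TFs replicate 1 lay above the other 2 TFs libraries, and without it the value in tail fibroblasts was -2.46.

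*Chac1* (ENSMUSG00000027313, chromosome 2 from 119351229 to 119354381) showed the largest fall of the 10 genes in each organ and rested on few reads after transplantation. In culture it had 9.44, 9.10 and 9.04 CPM in HFc, 6.79, 7.02 and 7.51 in KFc and 5.25, 6.16 and 5.04 in TFc. After transplantation it had 0.421, 0.661 and 0.418 CPM in HFs (33 reads in all), 0.970, 0.288 and 2.65 in KFs (99 reads) and 0.642, 0.136 and 0.0848 in TFs (17 reads, with 2 libraries at or under 3 reads). By edgeR, the log2 fold change was -4.18 (SE 0.62, adjusted p = 3.74e-05) in heart, -2.46 (SE 0.55, adjusted p = 0.00168) in kidney and -4.30 (SE 0.66, adjusted p = 0.000119) in tail fibroblasts. With the reads of each group pooled, the level in culture was 18.3-fold (95% exact interval 12.9 to 26.8) higher in heart, 5.82-fold (4.70 to 7.27) in kidney and 20.7-fold (12.8 to 35.9) in tail fibroblasts, where the intervals cover counting error only. KFs replicate 3 held 66 of the 99 reads in KFs, and without it the log2 fold change in kidney fibroblasts was -3.57. Without TFs replicate 1, with 12 of the 17 reads in TFs, the value in tail fibroblasts was -5.58.

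*Asns*, asparagine synthetase, makes asparagine from aspartate and glutamine. *Asns* (ENSMUSG00000029752, chromosome 6 from 7675169 to 7693254) had 55.2, 58.8 and 53.2 CPM in HFc, 60.3, 67.8 and 66.6 in KFc and 47.4, 52.0 and 49.5 in TFc. It had 11.0, 8.77 and 8.01 CPM in HFs, 20.2, 26.9 and 20.8 in KFs and 16.3, 12.04 and 11.8 in TFs. All transplanted libraries were below all cultured ones, and the 6 groups fell in the order KFc, HFc, TFc, KFs, TFs and HFs with no overlap between neighbours. The log2 fold change was -2.59 (SE 0.15, adjusted p = 3.87e-09) in heart, -1.52 (SE 0.14, adjusted p = 6.25e-07) in kidney and -1.89 (SE 0.14, adjusted p = 1.73e-07) in tail fibroblasts by edgeR, or 6.04-fold, 2.86-fold and 3.71-fold lower.

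Serine is made from 3-phosphoglycerate by *Phgdh*, which catalyses the first step, *Psat1*, the second, and *Psph*, the last. *Phgdh* (ENSMUSG00000053398, chromosome 3 from 98313170 to 98339990) had 81.9, 86.0 and 84.9 CPM in HFc, 101, 95.2 and 92.2 in KFc and 49.3, 47.3 and 51.7 in TFc. It had 7.51, 8.73 and 7.71 CPM in HFs, 19.3, 25.1 and 20.4 in KFs and 16.2, 13.2 and 12.9 in TFs. The 6 groups did not overlap, and HFs was the lowest although HFc was the second highest. Its log2 fold change was -3.40 (SE 0.11, adjusted p = 4.83e-11) in heart, -2.15 (SE 0.11, adjusted p = 1.40e-09) in kidney and -1.81 (SE 0.11, adjusted p = 1.90e-08) in tail fibroblasts by edgeR. These counts are uncertain, because 35.8% of the 75-base windows of its exons occur elsewhere in annotated transcripts, mostly in the pseudogene *Gm7901*, which was not analysed here. Of the other genes, 8 of the 3390 windows of *Shmt2* (0.236%) were shared and those of the other 8 genes were not.

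*Psat1* (ENSMUSG00000024640, chromosome 19 from 15904678 to 15947337) varied more among transplanted libraries. It had 24.2, 25.5 and 25.5 CPM in HFc, 42.9, 44.1 and 45.6 in KFc and 29.8, 30.9 and 33.0 in TFc. After transplantation it had 13.9, 10.8 and 11.4 CPM in HFs, 29.4, 44.7 and 16.6 in KFs and 23.0, 12.9 and 12.2 in TFs. KFs replicate 2 lay within the range of KFc, whereas all HFs and TFs libraries lay below the cultured libraries of their organ. *Psat1* fell in heart fibroblasts, by 1.06 on the log2 scale (SE 0.28, adjusted p = 0.00425, edgeR), and this call was lost with DESeq2 (-0.9999) and without HFs replicate 2 (-0.94) or 3 (-0.98), where the fold change was under the limit. The log2 fold change was -0.55 (SE 0.27, adjusted p = 0.106) in kidney and -0.97 (SE 0.27, adjusted p = 0.0116) in tail fibroblasts by edgeR, neither past both thresholds, but without TFs replicate 1 the tail value was -1.32 and without TFc replicate 1 it was -1.002, past the limit.

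In the mitochondrion, *Shmt2* splits serine into glycine and a one-carbon unit carried by folate, and *Mthfd2* oxidizes that unit. *Mthfd2* (ENSMUSG00000005667, chromosome 6 from 83305691 to 83325908) had 41.6, 44.3 and 40.8 CPM in HFc, 62.4, 59.1 and 59.5 in KFc and 42.1, 41.2 and 37.8 in TFc. It had 10.1, 8.42 and 6.72 CPM in HFs, 21.6, 37.4 and 16.5 in KFs and 12.4, 7.82 and 5.60 in TFs. It fell in each organ, with a log2 fold change of -2.34 (SE 0.28, adjusted p = 4.94e-06) in heart, -1.26 (SE 0.26, adjusted p = 0.00104) in kidney and -2.24 (SE 0.28, adjusted p = 1.86e-05) in tail fibroblasts by edgeR. HFs and TFs overlapped, and KFs lay between these and the cultured groups.

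*Shmt2* (ENSMUSG00000025403, chromosome 10 from 127517123 to 127522444), the preceding step, passed both thresholds in none of the organs. It had 49.4, 51.8 and 48.9 CPM in HFc, 51.6, 47.6 and 46.6 in KFc and 50.3, 55.5 and 48.2 in TFc. It had 25.8, 30.9 and 22.3 CPM in HFs, 48.1, 91.8 and 40.6 in KFs and 51.4, 33.1 and 38.6 in TFs. HFs lay below all other groups, while KFs and TFs overlapped their cultured groups. The log2 fold change was -0.93 (SE 0.24, adjusted p = 0.00349) in heart, 0.31 (SE 0.23, adjusted p = 0.285) in kidney and -0.32 (SE 0.23, adjusted p = 0.288) in tail fibroblasts by edgeR, with a 95% interval of -0.18 to 0.80 in kidney and -0.82 to 0.17 in tail.

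All genes but *Chac1*, *Trib3* and *Slc7a11* (7 of 10) were highest among the transplanted libraries in KFs replicate 2. Within TFs, all but *Slc7a11* (9 of 10) were highest in replicate 1. The share of all genes with these orders was not determined. The summed level of 6 proliferation genes (*Mki67*, *Top2a*, *Ccnb1*, *Cdk1*, *Birc5* and *Bub1*) was highest in the same 2 libraries, at 955 and 817 CPM. In the other transplanted libraries it was 381, 276 and 364 CPM in HFs, 586 and 428 in KFs and 404 and 303 in TFs. In culture it was 471 to 505 CPM in HFc, 156 to 160 in KFc and 289 to 309 in TFc, so that KFc, with the highest group means of *Psat1* and *Mthfd2*, had the lowest proliferation sums. All 6 proliferation genes rose in KFs relative to KFc, 3 fell in HFs relative to HFc, and none passed both thresholds in TFs relative to TFc by edgeR, where 1 was higher at the adjusted p alone. Their part in the results was not tested.

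**Figure D3:**
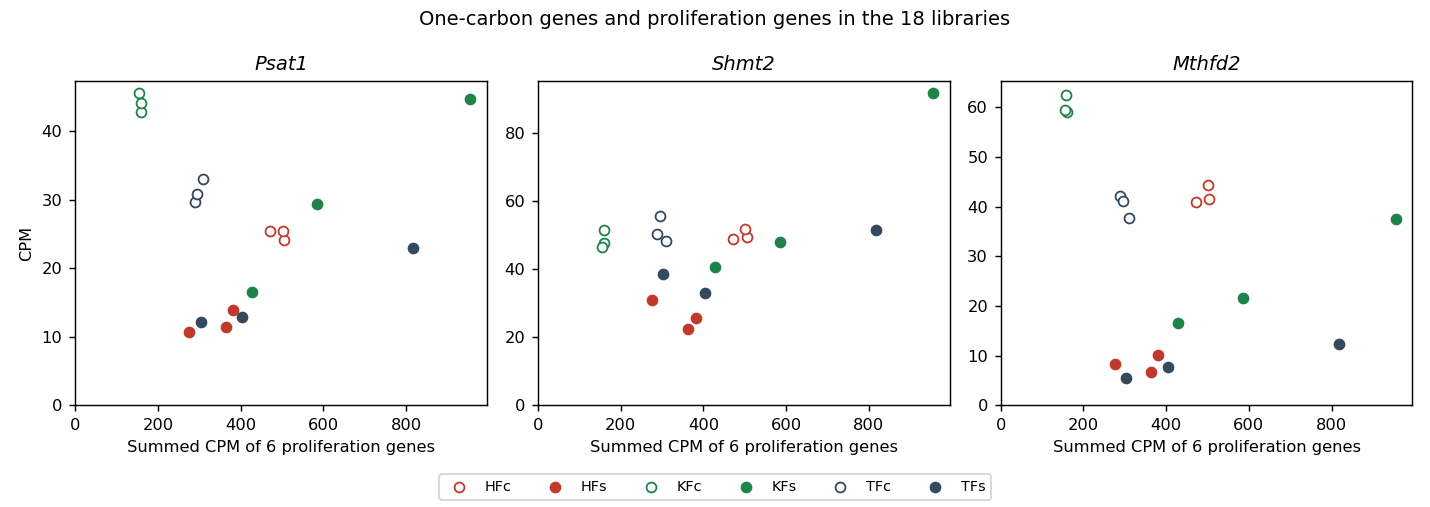
Level of *Psat1*, *Shmt2* and *Mthfd2* (y axis, CPM) beside the summed level of 6 proliferation genes (x axis, CPM) in the 18 libraries. Open points are cultured and filled points transplanted libraries, with 1 colour per organ. Among filled points the library with the highest sum, KFs replicate 2 at 955 CPM, has the highest level of each gene, while the open points of KFc have the lowest sums and the highest group means of *Psat1* and *Mthfd2*.

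The 2 transporters differed between organs. *Slc7a5* encodes LAT1, which imports leucine and other large neutral amino acids, and *Slc7a11* encodes xCT, which imports cystine in exchange for glutamate. *Slc7a5* (ENSMUSG00000040010, chromosome 8 from 121881150 to 121907694) had 42.2, 46.5 and 43.9 CPM in HFc, 44.8, 50.3 and 43.4 in KFc and 20.9, 20.6 and 22.4 in TFc. It had 13.5, 8.20 and 7.86 CPM in HFs, 23.4, 34.9 and 28.6 in KFs and 24.03, 17.2 and 15.7 in TFs. It fell in heart fibroblasts, with a log2 fold change of -2.17 (SE 0.20, adjusted p = 4.45e-07, edgeR). In kidney fibroblasts the value was -0.67 (SE 0.19, adjusted p = 0.00915), under the limit on the fold change, and in tail fibroblasts -0.17 (SE 0.19, adjusted p = 0.517, 95% interval -0.58 to 0.24), where the groups overlapped.

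*Slc7a11* (ENSMUSG00000027737, chromosome 3 from 49892526 to 50443614) was the only one of the 10 genes that rose in a transplant comparison, and it did so in tail fibroblasts. It had 10.7, 11.4 and 11.6 CPM in HFc, 8.46, 9.77 and 9.47 in KFc and 6.41, 4.47 and 3.86 in TFc. It had 8.96, 9.48 and 10.6 CPM in HFs, 13.6, 15.8 and 16.6 in KFs and 14.3, 14.04 and 15.3 in TFs. KFs and TFs overlapped at the top of the order and TFc lay at the bottom, below all other groups. Its log2 fold change was 1.56 (SE 0.16, adjusted p = 2.68e-06), or 2.94-fold, in tail fibroblasts, 0.73 (SE 0.15, adjusted p = 0.00102) in kidney fibroblasts, under the limit, and -0.21 (SE 0.15, adjusted p = 0.248) in heart fibroblasts by edgeR. Over the 18 libraries, which fall into 6 groups, its log2(CPM + 1) had a Pearson's r of 0.08 with that of *Slc7a5*, its highest with any of the other 9 genes, and of -0.54 with that of *Atf4*, its lowest. By contrast, *Asns* and *Phgdh* had an r of 0.98 with each other and *Atf4* and *Mthfd2* of 0.96.

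**Figure D4:**
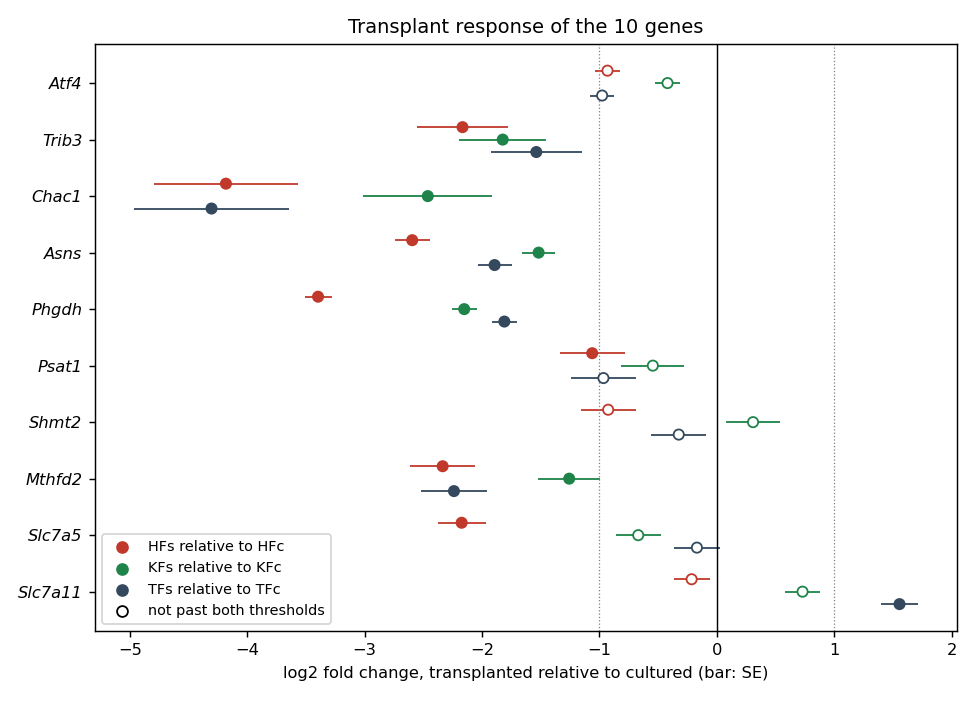
Transplant response of the 10 genes. The x axis is the log2 fold change of transplanted relative to cultured cells with its standard error, with 1 colour per organ, and filled points passed both thresholds, whose fold-change limits of -1 and 1 are the dotted lines. *Asns*, *Trib3*, *Chac1*, *Phgdh* and *Mthfd2* lie left of the limit in all 3 organs, and *Slc7a11* in tail fibroblasts, at 1.56, lies right of it.

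The size of the response was then compared between organs with interaction contrasts of the same fit, at an adjusted p under 0.05. Between heart and kidney, 7 genes had a more negative response in heart fibroblasts, compared with 15.5% of all genes. Their differences in log2 fold change were -1.50 for *Slc7a5* (SE 0.28, adjusted p = 0.00109), -1.25 for *Phgdh* (SE 0.15, adjusted p = 5.80e-05), -1.23 for *Shmt2* (SE 0.33, adjusted p = 0.012), -1.08 for *Asns* (SE 0.20, adjusted p = 0.00113), -1.08 for *Mthfd2* (SE 0.38, adjusted p = 0.0451), -0.95 for *Slc7a11* (SE 0.22, adjusted p = 0.0048) and -0.51 for *Atf4* (SE 0.15, adjusted p = 0.0184). Without KFs replicate 3 the same comparison called 8 genes. The *Mthfd2* call was lost without any 1 of 14 libraries, most of all without KFs replicate 2 (-0.61, adjusted p = 0.169), and also with DESeq2 size factors, without a filter, with a mean count of at least 10, after thinning and with its own groups alone (adjusted p from 0.0554 to 0.0704, edgeR). That of *Atf4* was lost without a filter, with its own groups alone and without HFs replicate 2 or 3 or KFs replicate 2 (adjusted p up to 0.11).

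Between heart and tail, 4 genes had a more negative response in heart fibroblasts (12.7% of all genes did). The differences were -2.0045 for *Slc7a5* (SE 0.28, adjusted p = 0.000145), -1.77 for *Slc7a11* (SE 0.22, adjusted p = 5.37e-05), -1.59 for *Phgdh* (SE 0.15, adjusted p = 5.47e-06) and -0.70 for *Asns* (SE 0.20, adjusted p = 0.0198), and the last was lost without HFs replicate 2 or 3 or TFs replicate 1 (adjusted p = 0.0689, 0.0772 and 0.0596). For *Atf4*, *Psat1* and *Mthfd2* the differences were 0.05 (95% interval -0.27 to 0.36), -0.10 (-0.92 to 0.73) and -0.10 (-0.91 to 0.72). Between kidney and tail, 2 genes were called, 1 in each direction (4.99% of all genes were higher and 6.07% lower), *Atf4* with a less negative response in kidney fibroblasts (0.56, SE 0.15, adjusted p = 0.0241) and *Slc7a11* with a smaller positive one (-0.83, SE 0.22, adjusted p = 0.0235). Neither was called without KFc replicate 2 or 3, TFs replicate 3 or TFc replicate 2 (adjusted p from 0.0532 to 0.0676 over the calls lost), and *Atf4* was not called without KFs replicate 2 or TFc replicate 3, whereas 4 genes were called without KFs replicate 3 or TFs replicate 1. The 3 contrasts share groups with each other.

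Levels were also compared between organs within each state, again at an adjusted p under 0.05 and with groups that take part in several comparisons. In culture, *Slc7a11*, *Slc7a5*, *Phgdh* and *Trib3* were higher in HFc than in TFc, by 1.19, 1.05, 0.77 and 0.98 on the log2 scale (4 genes, 20.9% of all genes). *Trib3*, *Slc7a5*, *Phgdh*, *Slc7a11* and *Asns* were higher in KFc than in TFc, by 1.46, 1.12, 0.96, 0.90 and 0.39 (5 genes, 17.8% of all genes). *Psat1* was lower in HFc than in KFc (-0.82, adjusted p = 0.032) and was the only gene called in either direction (29.2% of all genes). The fits of the 2 groups compared alone called 7, 8 and 5 genes, where the spread of transplanted libraries did not enter. *Trib3* between HFc and TFc (adjusted p = 0.04) lost its call without any 1 of 12 libraries, *Psat1* without any 1 of the 6 compared, and *Asns* between KFc and TFc (adjusted p = 0.0374) without HFc replicate 1, KFc replicate 2 or 3 or TFc replicate 1 or 3.

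In culture TFc had the lowest group mean for 7 of the 10 genes, and after transplantation HFs had the lowest for 7. The share of all genes with such an order was not determined. For *Mthfd2* the lowest means were close to the next, at 40.4 CPM in TFc and 42.3 in HFc. After transplantation they were 8.41 CPM in HFs and 8.59 in TFs. All but *Chac1* and *Trib3* were lower in HFs than in KFs (8 genes, compared with 19.0% of all genes), by between 0.41 for *Atf4* and 1.59 for *Mthfd2* on the log2 scale. *Slc7a5*, *Phgdh*, *Slc7a11* and *Asns* were lower in HFs than in TFs, by 0.95, 0.82, 0.59 and 0.53 (4 genes, 12.7% of all genes). All but *Shmt2* and *Slc7a11* were higher in KFs than in TFs (8 genes, 15.3% of all genes), by between 0.44 for *Atf4* and 2.22 for *Chac1*, and without KFs replicate 3 the *Chac1* value was 1.16 (adjusted p = 0.136). Without TFs replicate 2 or 3 the last comparison called 4 genes and no longer *Trib3*, *Chac1*, *Psat1* or *Slc7a5*, whose KFs and TFs libraries overlapped. *Atf4* between HFs and KFs was not called without HFs replicate 3 or KFs replicate 2. A fit of the 2 groups alone called 4 genes between HFs and KFs and 0 between KFs and TFs, and a fit of the transplanted libraries with proximal tubule markers as a covariate called 2, 0 and, between HFs and TFs, 1. The covariate fit held 9 libraries. For the calls lost, its fold changes were 0.853 to 1.15 times those of all 18 libraries between HFs and KFs. They were 0.901 to 1.36 times as large between KFs and TFs and 0.937 to 0.962 times between HFs and TFs. These libraries were not fitted without the covariate, so its effect and that of fewer libraries cannot be told apart. Between KFs and TFs, 5 genes differed at an unadjusted p under 0.05 in the fit of the 2 groups alone and in the covariate fit. DESeq2 on all libraries called 8. In it, as in the main fit, the spread was estimated over all 6 groups, so that of the cultured libraries entered. Proximal tubule markers were highest in HFs replicate 2, and without it the comparison of HFs with TFs called 2 genes. In that comparison *Asns* was not called without HFs replicate 2 or 3 or TFs replicate 1, and *Slc7a11* not without HFs replicate 1 or 2.

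Further genes of the pathway were read from 8 lists, also chosen with earlier results known, with 67 genes of which 66 were tested (*Fgf21* was not). Of the 66, 20 fell and 7 rose in heart fibroblasts, 8 fell and 5 rose in kidney fibroblasts and 8 fell and 4 rose in tail fibroblasts, beside 9.33%, 7.99% and 5.53% of all genes that fell and 18.3%, 14.7% and 11.0% that rose. *Psph*, the last enzyme of serine synthesis, fell in all 3 organs, by 1.84, 1.42 and 1.26 on the log2 scale. In its list of 9 serine, glycine and folate genes, 2, 1 and 1 fell and 2, 1 and 1 rose in heart, kidney and tail fibroblasts. *Mthfd1l*, which releases formate from the mitochondrial folate cycle, rose in kidney (1.77, adjusted p = 0.000127) and tail fibroblasts (1.29, adjusted p = 0.00224) and was 0.34 (adjusted p = 0.314) in heart fibroblasts. In heart fibroblasts *Aldh1l1*, which oxidizes 10-formyltetrahydrofolate in the cytosol, rose by 2.26 (adjusted p = 0.000101, edgeR), and by 1.77 without HFs replicate 2. The median of the list was 0.13, 0.59 and 0.04, and without TFs replicate 1 a single gene of the list passed both thresholds in tail fibroblasts.

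Cytosolic aminoacyl-tRNA synthetases attach amino acids to their tRNAs. At the adjusted p alone, all 12 of those listed as ATF4-responsive were lower in heart and in tail fibroblasts and 9 in kidney fibroblasts. Of all genes, 28.4%, 22.7% and 20.2% were lower in heart, kidney and tail fibroblasts. Of the 12, in the same order, 9, 2 and 2 also passed the fold-change limit (9.33%, 7.99% and 5.53% of all genes). The medians of the 12 were -1.16, -0.53 and -0.74. The largest falls were those of *Cars* in heart (-1.66, adjusted p = 6.30e-09), *Wars* in kidney (-1.29, adjusted p = 1.26e-07) and *Aars* in tail fibroblasts (-1.16, adjusted p = 1.38e-06). Of the 8 other cytosolic synthetases, 8, 3 and 5 were lower at the adjusted p alone and 3, 0 and 0 passed both thresholds, with medians of -0.87, -0.03 and -0.33. *Hars* had the largest fall among them in heart fibroblasts (-1.25), where 1 of the 8 passed without HFs replicate 2. The difference between the 2 lists was not tested.

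Among 8 amino acid transporters, *Slc7a1*, which imports arginine and lysine, fell in all 3 organs (-1.42, -1.10 and -1.57), and 1, 2 and 2 genes fell in heart, kidney and tail, with 1 in tail without TFs replicate 2 or TFc replicate 3. *Slc43a1*, a transporter of large neutral amino acids, rose in heart (4.66, from 0.247 ± 0.155 to 6.32 ± 0.671 CPM, SD, n = 3) and kidney fibroblasts (2.15). *Slc3a2*, the common partner chain of LAT1 and xCT, had log2 fold changes of -0.44, -0.34 and -0.42, under the limit. In the list of other amino acid synthesis, with 6 genes, *Got1* fell in heart fibroblasts (-1.61). *Cth*, which makes cysteine from cystathionine, rose in heart (1.33) and fell in kidney fibroblasts (-1.98), and *Cbs*, the step before it, rose in heart fibroblasts (1.73). Both genes were highest in HFs replicate 2, the library with the highest sum of proximal tubule markers (*Cth* 1.08, 4.19 and 1.48 CPM and *Cbs* 1.56, 5.11 and 1.14 in HFs), and without it they were 0.57 (adjusted p = 0.26) and 0.82 (adjusted p = 0.228, edgeR). They were also lost without HFc replicate 1 or 2, and that of *Cbs* without HFc replicate 3. None passed both thresholds in tail fibroblasts, where 2 were lower at the adjusted p alone (20.2% of all genes). There, 1 passed without any 1 of 6 libraries.

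Other targets of the response did not move in 1 direction. Of 11 tested, *Atf5*, a related bZIP factor, fell in all 3 organs (-2.02, -1.80 and -1.30), whereas *Atf3* (2.33, 3.44 and 1.97) and *Ddit4*, an inhibitor of mTORC1 (1.23, 2.08 and 1.69), rose in all 3. *Atf3* varied among KFs libraries (20.6, 12.3 and 72.7 CPM), and its kidney value was 2.30 without KFs replicate 3. Its tail call was lost without TFs replicate 1 or TFc replicate 1 or 3 (adjusted p up to 0.0919, edgeR). *Stc2* rose (3.07) and *Nupr1* fell (-1.28) in kidney fibroblasts, *Gdf15* fell in heart fibroblasts by 1.97 (adjusted p = 0.0425, edgeR), a call lost without any 1 of 11 libraries, and *Ddit3*, which encodes CHOP, was -0.14, -0.74 and 0.08 and passed both thresholds in none. The 7 eIF2alpha kinases, phosphatase subunits and eIF2alpha itself held 1 fall, *Eif2s1* in heart fibroblasts (-1.29), and 1 rise, *Eif2ak2*, the interferon-inducible kinase PKR, in tail fibroblasts (1.13), where none passed without TFs replicate 1. Of 5 glutathione genes, *Gclm* fell in heart (-1.33) and *Gclc* (-1.18) and *Gss* (-1.06) in tail fibroblasts, with medians of -0.71, -0.95 and -0.87, and the *Gclc* call was lost without any 1 of 14 libraries. None of the 5 passed both thresholds in kidney fibroblasts by edgeR, where 4 were lower at the adjusted p alone (22.7% of all genes). There, 3 passed without KFs replicate 3. *Slc3a2*, *Stc2*, *Nupr1*, *Gdf15*, *Ddit3* and *Gss* were named after their values were seen.

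**Figure D5:**
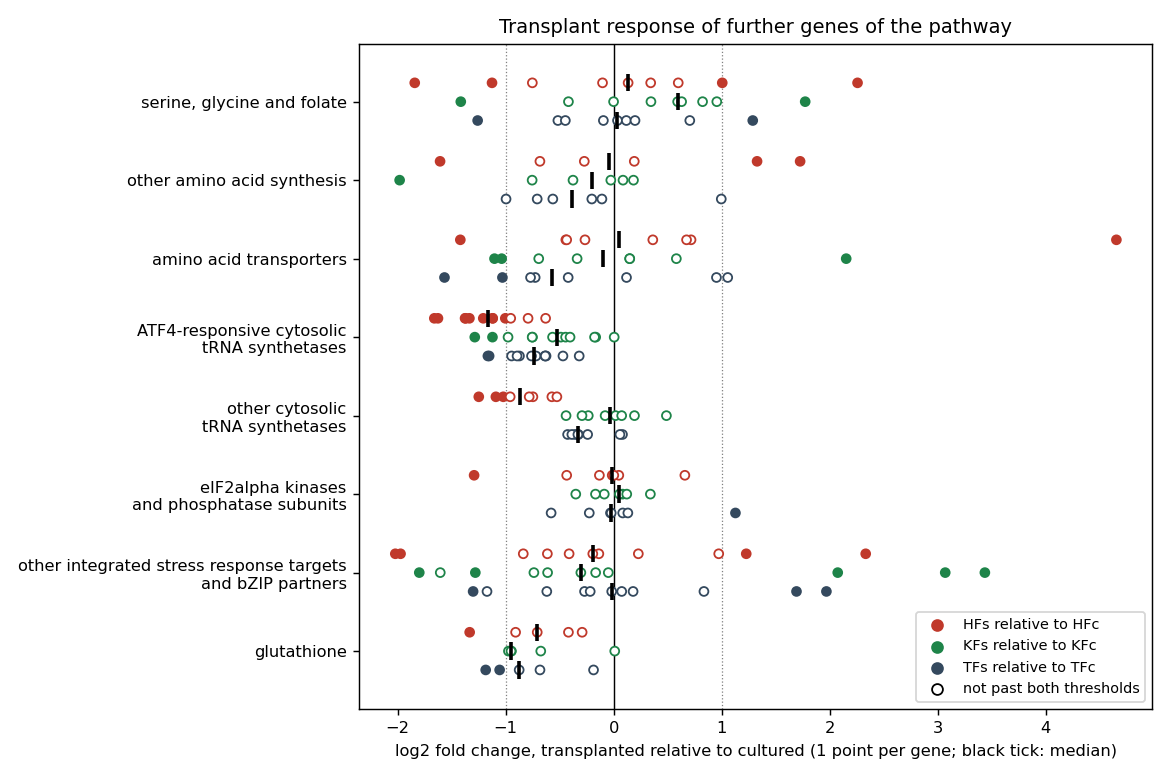
Transplant response of 66 further genes in 8 lists. The x axis is the log2 fold change of transplanted relative to cultured cells, points are single genes with 1 colour per organ, filled points passed both thresholds, and black ticks are list medians. The 12 ATF4-responsive tRNA synthetases lie almost wholly to the left of 0, with medians of -1.16, -0.53 and -0.74, while other targets of the response spread to both sides.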

How the data were processed

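RNA of 18 libraries was analysed, 3 in each of 6 groups given by the sample titles, and the comparisons of transplanted with cultured cells, of these responses between organs and of organs within a state were made. Per the study's methods, single-end stranded reads of 75 bases were aligned with Bowtie2 within RSEM to GRCm38, while the submitters' processing notes name mm9, Bowtie and RSEM. The methods name a stranded total RNA kit for cells isolated from the kidney capsule. They do not name the kit of the cultured controls, so a difference in preparation between cultured and transplanted groups could not be checked. The authors deposited expected counts per gene as whole numbers without normalization, so reads shared by several genes are split by estimate. GENCODE mouse release M21 gave symbols and positions for 37607 of 38924 identifiers. Library totals were 17927838 to 32245168 counts, a gene was taken as detectable above 3 counts, and this floor covers counting error only.

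With edgeR 4.0.16 in R 4.3.3, low counts were removed by filterByExpr, libraries scaled by TMM, and 1 mean per group fitted and tested two-sided (glmQLFit, glmQLFTest) with Benjamini-Hochberg adjustment over 16577 genes. The biological coefficient of variation was 0.24. The standard error is the size of the log2 fold change divided by the square root of F, and 95% intervals use the t quantile (2.13) at the fit's 15.4 degrees of freedom. The procedure was tested on simulated data. Pooled ratios used scipy 1.17.1, and tables and figures numpy 2.4.6, pandas 2.3.3 and matplotlib 3.10.9. Alternatives were DESeq2 1.42.0, other scalings and filters, thinning (seed 11), the replicate number as a block, the compared groups alone, other thresholds, proximal tubule markers as a covariate and each library left out.

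The 10 genes and all lists were chosen with earlier results of these data known. Named were the 10 genes, genes of each list past both thresholds in 1 direction in all 3 organs, the largest rise and fall per list and organ, and the 6 most similar genes of at least 10 CPM. The pseudocount for similarity was 1 CPM.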

Additional observations from a re-analysis of the deposited data

Results flagged for a closer look

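The interaction contrasts of the transplant response (edgeR's quasi-likelihood test, adjusted p under 0.05 over all genes) called 13 differences in log2 fold change, listed for a closer look. Of all genes, 12.7% were lower between heart and tail and 15.5% between heart and kidney. Between kidney and tail, 4.99% were higher and 6.07% lower. The calls of *Mthfd2* and *Atf4*, of *Asns* between heart and tail and of *Slc7a11* between kidney and tail were lost without certain single libraries. Between heart and tail fibroblasts they were -0.70 for *Asns*, -1.59 for *Phgdh*, -1.77 for *Slc7a11* and -2.0045 for *Slc7a5*. Between kidney and tail fibroblasts they were 0.56 for *Atf4* and -0.83 for *Slc7a11*. Between heart and kidney fibroblasts they were -0.51 for *Atf4*, -1.08 for *Asns*, -1.25 for *Phgdh*, -1.23 for *Shmt2*, -1.08 for *Mthfd2*, -0.95 for *Slc7a11* and -1.50 for *Slc7a5*. Groups of 3 are too small for the test of single outlying libraries, so none was made.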

How the results depend on the processing

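Leaving out 1 library, the number of the 10 genes called in the transplant comparisons was 6 to 7 in heart (7 with all libraries), 5 to 5 in kidney (5) and 6 to 8 in tail fibroblasts (6), and without a fold-change limit kidney gave 8. Response contrasts gave 3 to 5 genes for heart and tail (4), 0 to 4 for kidney and tail (2) and 5 to 8 for heart and kidney (7). Organ comparisons gave 3 to 4 for HFc and TFc (4), 4 to 7 for KFc and TFc (5), 0 to 3 for HFc and KFc (1), 2 to 5 for HFs and TFs (4), 4 to 9 for KFs and TFs (8) and 7 to 9 for HFs and KFs (8). The kidney and tail contrast gave 1 gene without a filter, after thinning and with its own groups alone, and 0 at an adjusted p under 0.01 or with a fold-change limit of 1. At 0.01, heart and kidney gave 4, HFc and KFc 0, HFs and TFs 2 and KFs and TFs 4. With the limit of 1, HFc and TFc gave 2, KFc and TFc 2, HFc and KFc 0, HFs and TFs 0 and KFs and TFs 3. The groups compared alone gave 7 for HFc and TFc, 8 for KFc and TFc, 5 for HFc and KFc, 0 for KFs and TFs and 4 for HFs and KFs, thinning gave 2 for HFc and KFc, and the tubule covariate gave 1 for HFs and TFs, 0 for KFs and TFs and 2 for HFs and KFs, from 9 libraries and with fold changes 0.853 to 1.36 times as large for the calls lost. The cause of these shifts was not tested. Of the values of single genes under the alternatives, 3184 stayed on their side of the threshold, 156 lost a call and 49 gained one, no called value changed sign, and 38 values past no threshold did, in 16 results. Scaling by library size alone moved the median of all genes to -0.25 for HFs relative to both TFs and KFs to -0.16 for HFc relative to TFc, to -0.11 for KFc relative to TFc and to 0.15 for KFs relative to KFc, and changes are given relative to TMM.

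The deviations of same-numbered libraries correlated by between -0.19 and 0.12 over 9 comparisons of groups, from -0.05 to 0.06 in the transplant comparisons. These values cannot show whether same-numbered libraries shared a donor or culture, and the main fit did not pair them. With the replicate block the counts were 7, 5, 6, 4, 2, 7, 4, 5, 1, 5, 8 and 8, in the order given above, and *Shmt2* between HFs and TFs (-0.66, adjusted p = 0.0488, edgeR) was the only call of the 10 genes that changed. In the list of other amino acid synthesis 1 gene was called in tail fibroblasts with the block and 0 without.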

Other observations

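The genes outside the 10 whose level was most like theirs were sought among 8965 genes of at least 10 CPM, by Pearson's r over the 18 libraries with the mean standardised log2(CPM + 1) of the 10. They were *Ubqln1* (0.98), *Basp1* (0.98), *Ywhag* (0.98), *Actr3* (0.97), *Wdr1* (0.97) and *Got1* (0.97), and the libraries share their 6 groups. Of these, *Got1*, the cytosolic aspartate aminotransferase, is an enzyme of amino acid metabolism, while *Actr3* and *Wdr1* act on actin filaments. The group means of *Basp1* were 204 CPM in HFc and 54.9 in HFs, 243 in KFc and 139.9 in KFs, and 135 in TFc and 82.8 in TFs.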
